A study of Mus musculus with 2 samples.

Results

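The interferon gamma induced GTPases described here are 10 mouse genes: Igtp, Irgm1, Irgm2, Iigp1, Gbp2, Gbp3, Gbp4, Gbp5, Gbp7 and Tgtp2. They were chosen by name, and all 10 were found by symbol among the 32574 genes of the count matrices. The libraries are single-cell RNA libraries of adductor muscle, the inner thigh muscle made ischemic by femoral artery ligation, collected on day 7. One library came from WT mice and the other from Apoa1bp-/- mice, which lack the NAD(P)HX epimerase also called AIBP. Both genotypes had the ligation, so neither library is uninjured muscle. The surgery was done on 4 Apoa1bp-/- mice and 4 control littermates, whose ages are not given, and whether animals were pooled is not stated. With 1 library per genotype, a difference between genotypes cannot be told apart from a difference between libraries, and no test across samples was possible. All intervals below are exact 95% intervals for counting error only.

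Interferon gamma is released mainly by T cells and NK cells and binds a receptor that most cells carry. The receptor signals through Janus kinases to DNA elements named gamma-activated sequences (GAS), while type I interferons act mainly at interferon-stimulated response elements (ISRE). The immunity-related GTPases (IRGs) and guanylate-binding proteins (GBPs) are among the most strongly induced products and attack vacuoles that hold intracellular pathogens. Irgm1, Irgm2 and Igtp, also called Irgm3, sit on the cell's own membranes and hold back the effector IRGs, among them Iigp1 and Tgtp2. GBPs assemble on vacuoles and bacteria, and several of them help to open an inflammasome response. Endothelial cells induce many of these genes under interferon.

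The stretches before the transcription start are shown because they hold the letters through which interferon signals are known to reach this family. They come from RefSeq on GRCm38.p6, in a table of windows from 250 bases before to 50 bases after each start, of which 8 of the 10 members had at least 1. Gbp4 and Iigp1 are named only. Capitals mark the GAS letters TTCNNNGAA, and the ISRE core, which is GAAA, any 2 bases and GAAA again, searched on both strands. Only bases before the start are printed.
Igtp, chr11:58199491-58199551, plus strand: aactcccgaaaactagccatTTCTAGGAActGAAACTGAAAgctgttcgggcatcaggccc
Irgm2, chr11:58214882-58214942, plus strand: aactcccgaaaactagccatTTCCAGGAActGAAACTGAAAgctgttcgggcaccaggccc
Tgtp2, chr11:49064253-49064313, minus strand: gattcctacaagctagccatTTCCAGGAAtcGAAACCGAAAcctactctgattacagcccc
Irgm1, chr11:48871421-48871470, minus strand: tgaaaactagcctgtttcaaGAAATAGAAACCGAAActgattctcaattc
Gbp7, chr3:142530210-142530312, plus strand: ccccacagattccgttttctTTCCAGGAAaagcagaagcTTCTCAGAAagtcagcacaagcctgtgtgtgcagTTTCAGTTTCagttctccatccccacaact
Gbp5, chr3:142496684-142496910, plus strand: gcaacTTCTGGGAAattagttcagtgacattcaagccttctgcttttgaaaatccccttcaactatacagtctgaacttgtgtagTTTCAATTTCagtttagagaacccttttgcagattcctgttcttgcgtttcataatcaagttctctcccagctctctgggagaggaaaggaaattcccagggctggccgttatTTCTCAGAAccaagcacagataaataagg
Gbp3, chr3:142559979-142560034, plus strand: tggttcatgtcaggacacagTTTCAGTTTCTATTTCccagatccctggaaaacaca
Gbp2, chr3:142620584-142620633, plus strand: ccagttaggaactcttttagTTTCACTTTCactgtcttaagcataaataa

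The ISRE core was found in a window of all 8 members with a window, against 3.44% of the 32851 windows of all genes. The GAS letters were found for Igtp, Irgm2, Tgtp2, Gbp5 and Gbp7, against 8.30% of all windows. Both motifs stood together in the windows of those 5 members, against 0.454% of all windows. In Igtp, Irgm2 and Tgtp2 the GAS letters and the ISRE core had 2 bases between them. In Irgm1 and Gbp3 a pair of ISRE matches overlapped. Gbp3 has a second annotated start, whose window held neither motif. A match is a description of letters, and binding was not measured here.

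**Figure D1:**
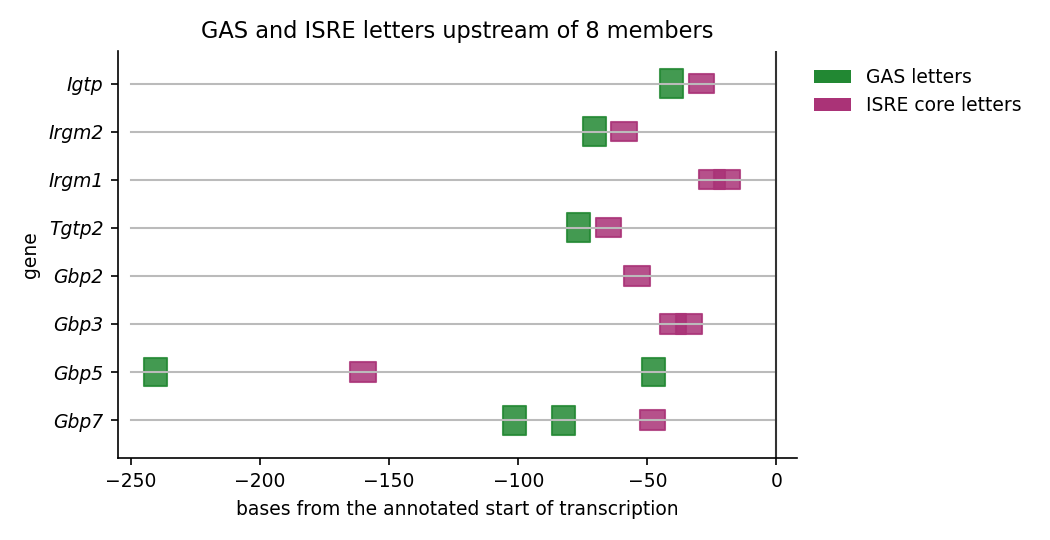
Positions of the GAS letters and of the ISRE core in the 250 bases before the annotated start of 8 members. The horizontal axis gives bases from the start at 0 and each row is 1 gene. The last bases of the ISRE matches of 7 genes lie between -61 and -15, and that of Gbp5 lies farther out, at bases -165 to -156.

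The upstream stretches also record how related the members are. Over the promoter windows, Igtp and Irgm2 were identical at 68.9% of aligned columns, and the next pair, Irgm1 and Igtp, at 55.4%. Igtp and Irgm2 are neighbours on chromosome 11 in the RefSeq order, and Gbp5, Gbp7 and Gbp3 follow each other on chromosome 3. Transcript letters bear on how reads could be assigned. Of the stretches of 50 letters in the transcripts of Tgtp2, 86.6% also occur in other genes, chiefly Tgtp1, so its counts are uncertain. The share was 12.7% for Gbp7, 11.8% for Igtp, 7.77% for Irgm2, 7.70% for Gbp4, and from 0.31% to 3.75% for the other five.

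The matrices held 14035 WT and 9392 knockout barcodes, of which 13837 and 9164 were kept, with medians of 4461 and 6825 unique molecular identifiers (UMIs, each standing for 1 captured RNA molecule). Naxe, the gene symbol in use for Apoa1bp, had 4061 UMIs in the WT library and 0 in the knockout library. The libraries shared 43 barcodes. Cells were assigned to classes by marker genes, which placed 87.8% of WT and 87.0% of knockout cells in 14 classes. Endothelial-like cells numbered 448 and 419, fibroblast-like cells 4335 and 1619, macrophage-like cells 5498 and 3383, and satellite cell-like cells 886 and 1123. In each class the 10 genes of highest fold included 3 to 7 of the class's own markers. The same markers had assigned the cells, so this count is no independent check of the classes. Knockout endothelial-like cells were deeper than WT ones, at medians of 8482 and 2854 UMIs. Levels below are UMIs per 1000000 UMIs of the class (CPM), and ratios are knockout over WT.

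Endothelial-like cells carried the family at the highest summed level of all 11 classes with at least 50 cells in each library. The 10 members together stood at 501 CPM in the WT library and 803 CPM in the knockout library. In the WT library T cell-like cells came next, at 442 CPM, with an interval of 371 to 522 CPM that overlapped that of endothelial-like cells (473 to 530 CPM). In the knockout library the next class was NK cell-like cells at 349 CPM, and the intervals did not overlap. Satellite cell-like cells were lowest in both libraries, at 47.5 and 57.0 CPM. Muscle fibre-like cells came next, at 61.7 and 83.4 CPM, and their interval overlapped that of satellite cell-like cells in WT but not in knockout. Macrophage-like cells, the most numerous class, held 160 and 156 CPM, and fibroblast-like cells 141 and 206 CPM.

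**Figure D2:**
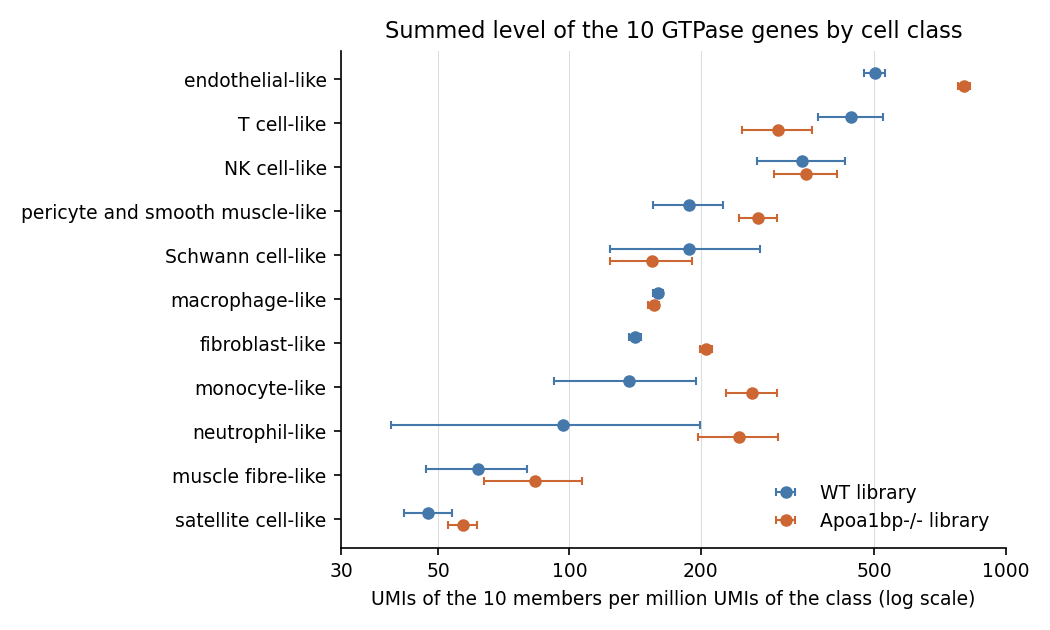
Summed level of the 10 GTPase genes in CPM, on a log axis, for the 11 classes with at least 50 cells in each library. Points are the WT and Apoa1bp-/- libraries and bars exact 95% Poisson intervals. The knockout point lies to the right of the WT point in endothelial-like cells (803 against 501 CPM) and to the left in T cell-like cells (301 against 442 CPM).

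The order of classes differed between members. Gbp4 was concentrated in T cell-like (112 CPM in WT, 51.8 CPM in knockout), NK cell-like (67.5 and 97.3 CPM) and endothelial-like cells (49.9 and 61.9 CPM). In fibroblast-, macrophage- and satellite cell-like cells Gbp4 stayed between 0.199 and 3.45 CPM. Iigp1 was highest in endothelial-like cells in both libraries, followed by pericyte and smooth muscle-like cells (33.5 and 77.5 CPM) and fibroblast-like cells (23.7 and 59.7 CPM). In T cell-like cells Iigp1 had 7 UMIs in WT and 0 in knockout. Gbp7 had at least 11.7 CPM in all 11 classes of both libraries. It ran from 11.7 CPM in satellite cell-like to 141 CPM in T cell-like cells in WT. In knockout it ran from 11.8 CPM in satellite cell-like to 172 CPM in endothelial-like cells.

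**Figure D3:**
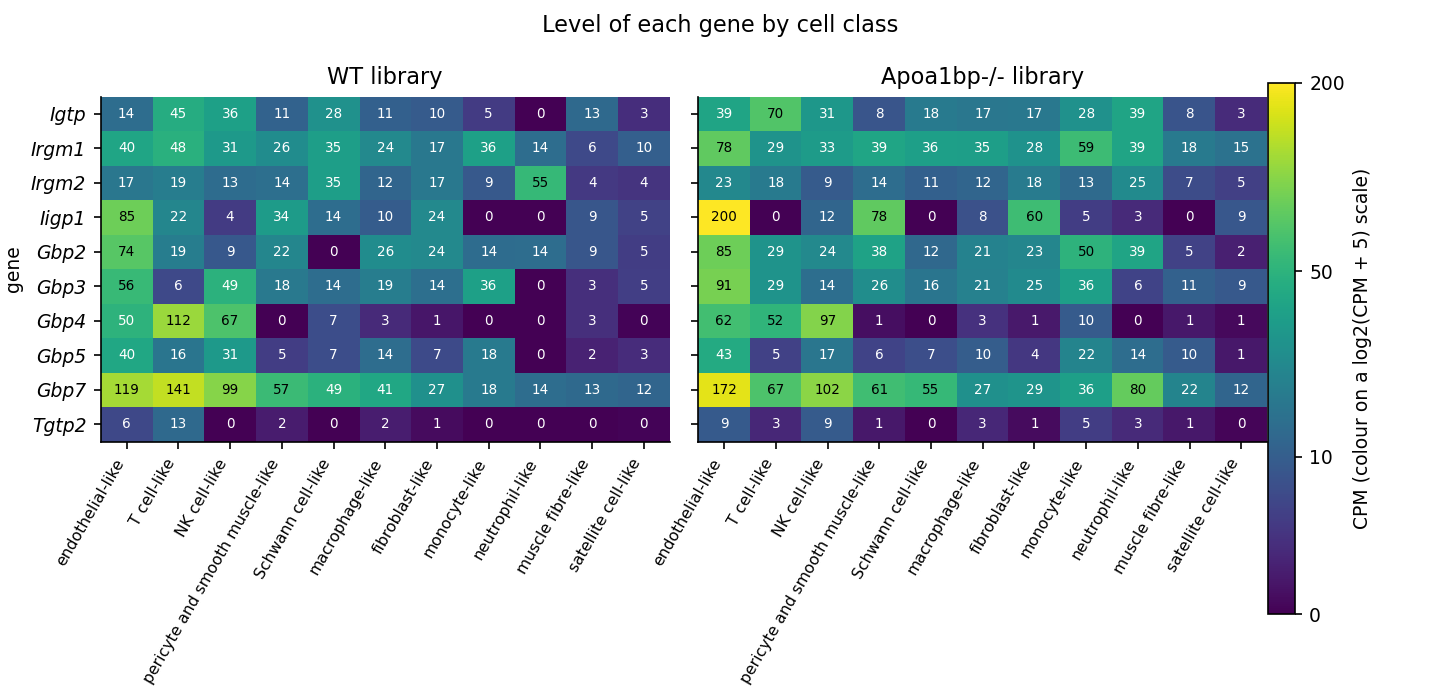
Level of each member in CPM (numbers in the cells, colour on a log2 scale with 5 CPM added) by class, with the WT library on the left and the Apoa1bp-/- library on the right. Classes are ordered by the summed level in the WT library. Iigp1 reaches 200 CPM in knockout endothelial-like cells, and Gbp4 stands out in endothelial-, T cell- and NK cell-like cells.

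Among the regulatory IRGs, Irgm1 and Igtp were higher in the knockout library in the 3 classes with most member UMIs, and Irgm2 differed less. Irgm1, which is also tied to autophagy, stood at 39.5 CPM in WT and 77.9 CPM in knockout endothelial-like cells, a ratio of 1.97 (1.57 to 2.49). In fibroblast-like cells Irgm1 stood at 17.1 and 28.4 CPM, a ratio of 1.66 (1.47 to 1.87). In macrophage-like cells it stood at 23.8 and 34.9 CPM, a ratio of 1.46 (1.33 to 1.62). All 3 intervals lay above 1. With every cell thinned to 1000 UMIs, the fibroblast ratio was 1.41 (0.934 to 2.11).

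Igtp, which guards the cell's own membranes and lipid droplets, had the highest ratio of any member in endothelial-like cells. It stood there at 13.7 CPM in WT, from 33 UMIs, and at 38.8 CPM in knockout, a ratio of 2.82 (1.94 to 4.22). The ratio was 1.78 (1.51 to 2.09) in fibroblast-like cells, from 9.59 to 17.0 CPM. It was 1.61 (1.39 to 1.86) in macrophage-like cells, from 10.5 to 16.9 CPM. In satellite cell-like cells Igtp was low in both libraries, at 3.18 and 2.93 CPM. Irgm2, the Golgi-associated member of the trio and the genomic neighbour of Igtp, had ratios of 1.40 (0.972 to 2.06) in endothelial-like, 1.07 (0.933 to 1.23) in fibroblast-like and 1.01 (0.866 to 1.18) in macrophage-like cells. Those 3 intervals all include 1, and thinned the Irgm2 ratio was 0.852 (0.306 to 2.33) in endothelial-like and 0.811 (0.502 to 1.27) in fibroblast-like cells. Igtp and Irgm2 share the order and spacing of the motif letters in the stretches printed above. The intervals of their ratios did not overlap in fibroblast- and macrophage-like cells and did overlap in endothelial-like cells.

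Of the effector IRGs, Iigp1, which coats and breaks pathogen vacuoles, was higher in knockout stromal cells, while its ratio in macrophage-like cells was below 1 and moved with depth and subset. Endothelial-like cells held 85.3 CPM in WT and 200 CPM in knockout, a ratio of 2.35 (2.02 to 2.74). Fibroblast-like cells held 23.7 and 59.7 CPM, a ratio of 2.52 (2.29 to 2.77). Pericyte and smooth muscle-like cells had a ratio of 2.31 (1.44 to 3.89), and satellite cell-like cells, at 5.37 and 8.61 CPM, one of 1.60 (1.04 to 2.55). In macrophage-like cells Iigp1 stood at 9.70 CPM in WT and 7.63 CPM in knockout, a ratio of 0.787 (0.656 to 0.942). Thinned, that ratio was 0.952 (0.611 to 1.46). The 12 fibroblast markers summed to 1223 CPM in WT and 402 CPM in knockout macrophage-like cells, and their part in the Iigp1 value was not tested. Tgtp2, whose counts are uncertain, had 15 and 47 UMIs in endothelial-like cells, at 6.24 and 9.30 CPM, and a ratio of 1.49 (0.818 to 2.87). Thinned, the Tgtp2 ratio was 4.73 (0.530 to 223.9) there. In macrophage-like cells it was 1.44 with all UMIs and 0.334 (0.0826 to 1.00) thinned.

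The GBPs varied more between classes. Gbp3 was higher in knockout endothelial-like cells, at 91.4 against 56.2 CPM, a ratio of 1.63 (1.34 to 1.98). It was also higher in fibroblast-like cells, with a ratio of 1.71 (1.49 to 1.95), and in satellite cell-like cells, with a ratio of 1.82 (1.17 to 2.93). In macrophage-like cells its ratio was 1.07 (0.95 to 1.20). Thinned, the Gbp3 ratio was 2.70 (1.40 to 5.53) in endothelial-like and 0.781 (0.576 to 1.05) in macrophage-like cells. Gbp7 stood at 119 CPM in WT and 172 CPM in knockout endothelial-like cells, a ratio of 1.44 (1.26 to 1.65). In macrophage-like cells Gbp7 was lower in the knockout library, at 27.4 against 40.7 CPM, a ratio of 0.672 (0.613 to 0.737). With all UMIs, the Gbp7 interval in endothelial-like cells lay wholly above 1 and that in macrophage-like cells wholly below it. Thinned, the Gbp7 ratio was 1.18 (0.809 to 1.73) in endothelial-like cells, an interval that includes 1. In macrophage-like cells it was 0.599 (0.474 to 0.752) thinned.

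Gbp2 and Gbp5 had ratios below 1 in fibroblast-, macrophage- and satellite cell-like cells. Gbp5, which promotes inflammasome assembly, had a ratio of 1.07 (0.837 to 1.37) in endothelial-like cells. It stood at 6.54 and 4.18 CPM in fibroblast-like cells, a ratio of 0.639 (0.487 to 0.831), and at 13.8 and 9.95 CPM in macrophage-like cells, a ratio of 0.722 (0.617 to 0.843). Averaging each cell's CPM in place of summing UMIs gave a ratio of 0.869 for Gbp5 in fibroblast-like cells. Thinned, the Gbp5 ratio was 0.741 (0.377 to 1.44) in endothelial-like and 0.952 (0.432 to 1.95) in fibroblast-like cells. Gbp2 stood at 73.7 and 85.5 CPM in endothelial-like cells, a ratio of 1.16 (0.972 to 1.39). It had ratios of 0.953 (0.844 to 1.07) in fibroblast-like and 0.817 (0.732 to 0.911) in macrophage-like cells. Gbp4 had a ratio of 1.24 (1.00 to 1.54) in endothelial-like cells. In endothelial-like cells 1 of the 5 GBPs, Gbp3, and 3 of the 5 IRGs reached 1.5-fold, where 6.32% of all genes were higher. Gbp7 (1.44), Irgm2 (1.40) and Tgtp2 (1.49) lay just under that limit. Averaging each cell's CPM gave 1.53 for Gbp7, so these counts depend on the limit and the measure.

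**Figure D4:**
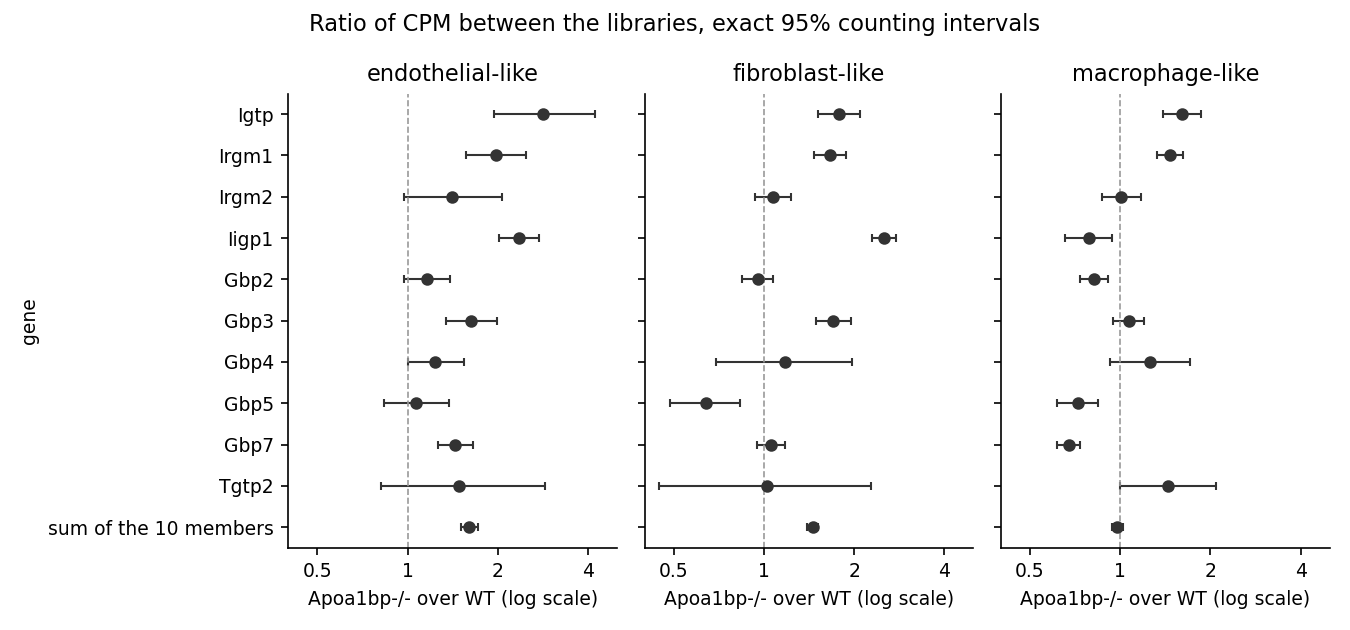
Ratio of CPM, Apoa1bp-/- over WT library, on a log axis for each member and for the sum, in endothelial-, fibroblast- and macrophage-like cells. Bars are exact conditional 95% intervals for counting error and the dashed line marks a ratio of 1. Iigp1 lies at 2.35 and 2.52 in the first and second panels and at 0.787 in the macrophage panel.

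Counts of members were read against all genes under the same rule, which called a gene when its levels differed at least 1.5-fold, with a mean of at least 5 CPM and at least 20 UMIs over both libraries. In endothelial-like cells all 10 members passed this filter on low values, 4 were higher in knockout (Igtp, Irgm1, Iigp1 and Gbp3) and 0 were lower, where 6.32% of all genes were higher and 15.9% lower. In fibroblast-like cells 8 passed, 4 were higher (the same 4 genes) and 1, Gbp5, was lower, where 6.32% of all genes were higher and 11.8% lower. On thinned counts Irgm1 (1.41) and Gbp5 (0.952) did not reach 1.5-fold in fibroblast-like cells. In satellite cell-like cells 4 passed and 2 were higher (Iigp1 and Gbp3), against 7.0% of all genes higher and 11.0% lower. Gbp3, at 4.97 and 9.04 CPM there, passed through its knockout level. Gbp2, at 4.77 and 1.98 CPM, a ratio of 0.415 (0.224 to 0.767), did not pass, nor did Gbp5, with a ratio of 0.461 (0.214 to 1.00). The satellite cell-like count and median thus depend on the filter. In macrophage-like cells 8 passed, 1 was higher (Igtp) and 0 were lower, where 2.46% of all genes were higher and 9.66% lower. The median log2 ratio of the members that passed was 0.55 in endothelial-like, 0.41 in fibroblast-like, 0.63 in satellite cell-like and -0.14 in macrophage-like cells. Over all genes tested it was -0.15, -0.10, -0.07 and -0.14 in the same order. Relative to that median of all genes, 7 members were at least 1.5-fold higher in endothelial-like cells, and the summed ratio in macrophage-like cells went from 0.978 to 1.08. The share of all genes called under that scaling is not given here.

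Summed over the 10 members, the ratio was 1.60 (1.5 to 1.71) in endothelial-like cells, 1.46 (1.39 to 1.52) in fibroblast-like cells and 0.978 (0.938 to 1.02) in macrophage-like cells. It was 1.20 (1.03 to 1.40) in satellite cell-like cells. Markers of other classes moved too. In endothelial-like cells the 12 fibroblast markers summed to 1151 CPM in WT and 684 CPM in knockout, with 0 of 12 higher in knockout and none of them at 0. The 12 macrophage markers there summed to 1065 and 725 CPM, with 1 of 12 higher. Both classes express the members at lower CPM than endothelial-like cells, and the part of these markers in the endothelial values was not tested. In fibroblast-like cells the 10 pericyte and smooth muscle markers summed to 371 CPM in WT and 735 CPM in knockout, with 7 of 10 higher. There the neutrophil markers went from 40.7 to 110 CPM (9 of 10 higher) and the NK cell markers from 15.0 to 27.0 CPM (10 of 10 higher), while the macrophage markers went from 1419 to 984 CPM (0 of 12 higher). Knockout pericyte and smooth muscle-like cells held Iigp1 at 77.5 CPM, and the part of these markers in the fibroblast values was not tested. With doublets called by Scrublet removed, the summed endothelial ratio was 1.51.

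The smaller classes gave wider intervals. In T cell-like cells (152 and 127 cells) the summed level was lower in knockout, at 301 against 442 CPM, a ratio of 0.680 (0.526 to 0.877). There Gbp4 had a ratio of 0.462 (0.253 to 0.823) and Gbp7 one of 0.478 (0.282 to 0.793). Members went both ways: of the 4 that passed the filter, 1, Igtp, was higher, with a ratio of 1.56 (0.790 to 3.22). The other 3 (Irgm1, Gbp4 and Gbp7) were lower, where 15.6% of all genes were higher and 13.5% lower. NK cell-like cells (87 and 121 cells) had a ratio of 1.02 (0.768 to 1.36). In monocyte-like cells (57 and 154 cells) the family stood at 137 and 262 CPM, a ratio of 1.92 (1.30 to 2.91). Neutrophil-like cells (54 and 174 cells) had 7 member UMIs in WT and 89 in knockout, a ratio of 2.53 (1.18 to 6.47). Pericyte and smooth muscle-like cells had a ratio of 1.44 (1.17 to 1.78). Tenocyte-, dendritic cell- and B cell-like cells numbered under 50 in at least 1 library and were not compared. Schwann cell- and muscle fibre-like cells had summed ratios of 0.823 (0.529 to 1.32) and 1.35 (0.927 to 1.97).

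Over all kept cells the family was higher in the knockout library, at 201 against 153 CPM, a ratio of 1.31 (1.28 to 1.34). The mix of cells also differed between the libraries. Endothelial-like cells held 2.97% of all UMIs and 9.74% of member UMIs in WT, and 6.31% and 25.2% in knockout. Macrophage-like cells held 39.9% of member UMIs in WT and 26.4% in knockout. With the WT shares of the classes used for both libraries, gated cells held 156 and 193 CPM, a ratio of 1.24.

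Shares of cells with a member UMI gave the same picture for endothelial-like cells when every cell was thinned to 1000 UMIs. At that depth 36.8% (31.9 to 41.9%) of 375 WT and 50.5% (45.5 to 55.5%) of 396 knockout endothelial-like cells had at least 1 member UMI, with 73 and 23 cells too shallow to be thinned. Without thinning the shares were 70.1% and 90.2%, at median depths of 2854 and 8482 UMIs. In satellite cell-like cells, the class with the lowest level, the thinned shares were 4.61% and 5.80% and the unthinned shares 18.3% and 33.9%, at medians of 4121 and 8563 UMIs. Fibroblast-like cells had thinned shares of 12.8% (11.8 to 13.8%) and 18.3% (16.4 to 20.3%), and macrophage-like cells of 15.4% (14.4 to 16.4%) and 14.4% (13.2 to 15.6%). Unthinned, fibroblast-like cells had 46.4% and 69.4%, and macrophage-like cells 42.7% and 53.4%. The macrophage shares thus changed order with depth, and only the thinned ones compare the libraries at 1 depth.

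For single members the thinned shares in endothelial-like cells differed most, in percentage points, for Iigp1, from 8.27% (5.69 to 11.5%) in WT to 17.2% (13.6 to 21.3%) in knockout. Irgm1 went from 3.47% (1.86 to 5.86%) to 8.08% (5.59 to 11.2%). Gbp7 stood at 13.3% (10.1 to 17.2%) and 14.6% (11.3 to 18.5%). Unthinned, the shares were 26.1% and 60.4% for Iigp1, 15.2% and 45.1% for Irgm1, and 34.8% and 63.0% for Gbp7. Member UMIs were unevenly spread over cells: the tenth of endothelial-like cells with most member UMIs held 46.5% of them in WT and 38.4% in knockout. A single knockout endothelial-like cell held 117 member UMIs. Cells were ranked here by member UMIs not scaled to depth, so deeper cells rank higher, and the part of depth was not tested.

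Endothelial-like cells were split by whether they had a UMI of a subtype gene, and the ratio was above 1 on both sides of all 5 splits. Cells with a UMI of Gpihbp1, a capillary gene, gave 503 CPM in WT and 809 CPM in knockout, a ratio of 1.61. Cells without a Gpihbp1 UMI (63 and 37 cells) gave 1.30 (0.907 to 1.88), an interval that includes 1. Cells with a UMI of Vwf gave 1.54 and those with Sema3g, an arterial gene, 1.55. Cells with a UMI of Apln, a tip cell gene, gave 1.51. Cells with a UMI of Ccl21a, a lymphatic gene, numbered 21 and 9 and gave 175 and 1140 CPM, a ratio of 6.51 (4.12 to 10.7). Without them the endothelial ratio was 1.53. Deeper cells have more chance of a UMI of any split gene, and depth differed between the sides.

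Macrophage-like cells differed among themselves in level and in direction. Those with a UMI of Cd163, a resident macrophage gene, numbered 671 in WT and 88 in knockout and held the family at 216 and 217 CPM. Those with Gpnmb, a gene of lipid-laden macrophages, held 121 and 135 CPM, a ratio of 1.12 (1.05 to 1.18), and those without it 215 and 203 CPM, a ratio of 0.945 (0.889 to 1.00). With Cx3cr1 the ratio was 1.14 (1.07 to 1.22) and without it 0.893 (0.843 to 0.945). The Gbp7 ratio was below 1 on both sides of all 4 macrophage splits (Cd163, Gpnmb, Cx3cr1 and Ccr2). It ranged from 0.560 (0.491 to 0.637) without Cx3cr1 to 0.894 (0.779 to 1.03) with it, where the interval includes 1. Igtp had ratios above 1 on both sides of all 4, from 1.15 to 1.94. The lowest, in cells with Cd163, came from 50 and 11 UMIs, and its interval (0.539 to 2.23) includes 1. The Iigp1 ratio was 1.48 (0.809 to 2.57) in cells with Cd163, from 60 and 17 UMIs, and 0.824 (0.678 to 1.00) in cells without it. It was 1.15 (0.875 to 1.52) with Gpnmb and 1.16 (0.846 to 1.58) with Ccr2. Without Ccr2 it was 0.630 (0.498 to 0.793), and without Gpnmb 0.682 (0.527 to 0.878). The Cx3cr1 split gave Iigp1 ratios below 1 on both sides, at 0.924 (0.700 to 1.22) with and 0.735 (0.571 to 0.940) without. In fibroblast-like cells the summed ratio was 1.81 (1.68 to 1.95) with a UMI of Cxcl14 and 1.31 (1.24 to 1.39) without.

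The ligand was measured in few cells. Ifng, which encodes interferon gamma, had 97 UMIs in WT and 172 in knockout. NK cell-like cells held it at 103 CPM in WT and 187 CPM in knockout, a ratio of 1.81 (1.13 to 3.02), and T cell-like cells at 92.9 and 119 CPM, a ratio of 1.28 (0.789 to 2.12). The thinned share of cells with an Ifng UMI was 11.0% and 14.3% in NK cell-like cells and 7.81% and 11.5% in T cell-like cells, with intervals that overlapped. Unthinned, those shares were 17.2% and 32.2%, and 13.8% and 22.0%. Macrophage-like cells, the largest class, had unthinned shares of 0.182% and 0.148%.

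The signalling list, which holds the ligand, receptor chains, kinases, transcription factors and feedback inhibitors, differed less than the members. In endothelial-like cells 11 of its 12 genes passed the filter, 1 was at least 1.5-fold higher in knockout and 0 lower, with a median log2 ratio of -0.01, where 6.32% of all genes were higher and 15.9% lower. The higher gene was Socs1, the feedback inhibitor of the receptor's kinases, at 4.58 and 9.50 CPM. The receptor chain Ifngr1 stood at 222 and 209 CPM, and Irf1, an interferon-induced transcription factor, at 52.0 and 43.7 CPM, a ratio of 0.840 (0.672 to 1.06). In fibroblast-like cells 0 of 11 were higher and 1, Ifngr1, lower, against 6.32% and 11.8% of all genes. In macrophage-like cells 1 of 11, Socs1, was higher and 0 lower, against 2.46% and 9.66%.

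Interferon gamma targets outside the family split. In endothelial-like cells 10 of 12 passed, 2 were higher (Cxcl10 and Psmb8) and 2 lower (H2-Aa and Nos2), against 6.32% and 15.9% of all genes. Cxcl10, a chemokine that interferons of both types induce, stood at 7.49 and 33.2 CPM, a ratio of 4.44 (2.72 to 7.67). Cxcl9, a chemokine that depends largely on interferon gamma, stood at 40.4 and 39.4 CPM there, a ratio of 0.975 (0.761 to 1.26). In fibroblast-like cells Cxcl9 was higher in knockout, with a ratio of 1.89 (1.79 to 1.99), and in macrophage-like cells lower, at 7.56 against 22.1 CPM, a ratio of 0.343 (0.292 to 0.401). Fibroblast-like cells carried Cxcl9 at 82.6 CPM in WT, the 12 fibroblast markers in macrophage-like cells stood at 1223 CPM in WT and 402 CPM in knockout with 0 of 12 higher, and their part in the macrophage value of Cxcl9 was not tested. Ciita, the master regulator of MHC class II, had ratios of 0.444 (0.327 to 0.594) in fibroblast-like and 0.727 (0.668 to 0.790) in macrophage-like cells. In fibroblast-like cells Ciita did not pass the filter on low values. The 12 macrophage markers went there from 1419 to 984 CPM, with 0 of 12 higher, and their part in the Ciita value was not tested.

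Of the 19 other genes listed for the GTPase families, 17 were in the matrices. In endothelial-like cells 7 passed the filter, 4 were higher (Gbp6, Ifi47, Gm4951 and Mx2) and 1, Irgq, was lower, against 6.32% and 15.9% of all genes. Ifi47, an effector IRG and the coding neighbour of Tgtp2, stood at 23.7 and 44.1 CPM, a ratio of 1.86 (1.38 to 2.53). Gm4951, a relative of Iigp1 that shares transcript letters with it, had ratios of 2.42 (1.22 to 5.36) in endothelial-like and 2.87 (2.38 to 3.46) in fibroblast-like cells, and 0.587 (0.450 to 0.761) in macrophage-like cells, where its mean was under the filter. F830016B08Rik, the coding neighbour of Iigp1, had a ratio of 2.88 (2.33 to 3.56) in fibroblast-like cells. In macrophage-like cells 3 of 7 were higher (Gbp8, Gbp9 and Mx1) and 1, Irgq, lower, against 2.46% and 9.66% of all genes. Gbp9, a neighbour of Gbp4, had a ratio of 1.82 (1.53 to 2.17) there and of 1.02 (0.820 to 1.28) in endothelial-like cells.

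The autophagy conjugation partners, through which IRGs and GBPs reach their target membranes, gave 0 of 11 higher and 1 lower in endothelial-like cells, where 6.32% of all genes were higher and 15.9% lower, so this count is no result about the list. The lower gene was Gabarapl1, at 55.4 and 34.6 CPM, and it was also the 1 lower gene of 11 in macrophage-like cells, at 45.3 and 27.4 CPM, against 9.66% of all genes lower. The inflammasome list gave 4 of 8 higher in macrophage-like cells (Casp1, Casp4, Il1b and Il18), with Casp1, the protease of the inflammasome, at 22.2 and 42.6 CPM, against 2.46% of all genes higher. In endothelial-like cells 4 inflammasome genes passed, 0 were higher and 1, Il1b, lower, against 6.32% and 15.9% of all genes.

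The type I interferon-induced list had most of its genes higher in the knockout library in the 3 classes of most member UMIs. Of its 18 genes, 15 were at least 1.5-fold higher in endothelial-like, 13 in fibroblast-like and 13 in macrophage-like cells, and 0 were lower, where 6.32%, 6.32% and 2.46% of all genes were higher in the same order. Isg15, a ubiquitin-like modifier, stood at 172 and 647 CPM in endothelial-like cells, a ratio of 3.75 (3.39 to 4.17), and at 67.6 and 220 CPM in macrophage-like cells. In macrophage-like cells the summed GTPase ratio of 0.978 stood beside 13 of 18 type I genes that were higher. That list was known from earlier results of these data to be higher in knockout and is not independent evidence of its direction.

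Cells were also ordered within each class and library by the summed CPM of the type I list and divided into 4 groups of equal size. In endothelial-like cells the members stood at 317 CPM in the lowest group and 839 CPM in the highest group in WT, and at 497 and 1395 CPM in knockout. Macrophage-like cells went from 84.2 to 296 CPM in WT and from 86.5 to 286 CPM in knockout. Fibroblast-like cells went from 78.1 to 254 CPM and from 108 to 356 CPM. The members were thus higher in cells with more type I transcripts in both libraries and in these 3 classes. In macrophage-like cells the mean type I level of the lowest group was 968 CPM in WT and 1971 CPM in knockout, while the members' levels there had overlapping intervals.

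**Figure D5:**
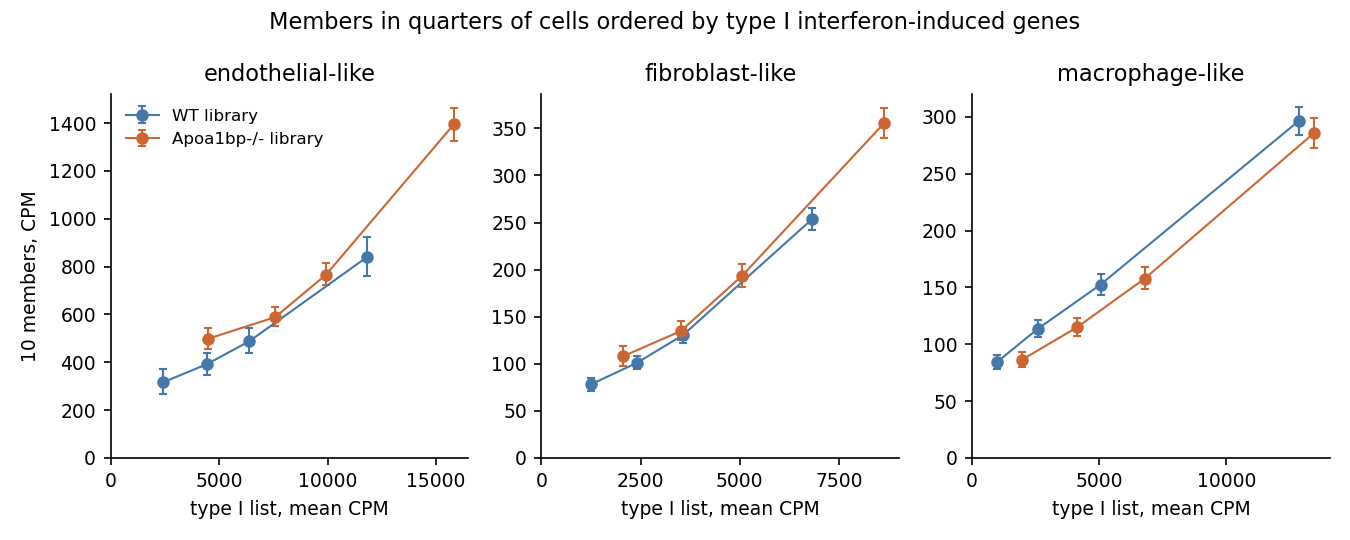
Summed level of the 10 members in CPM against the mean CPM of the type I interferon-induced list, in 4 equal groups of the cells of each class and library ordered by that list. Lines join the groups of the WT and Apoa1bp-/- libraries, and bars are exact 95% Poisson intervals. All lines rise from the first to the last group, from 317 to 839 CPM in WT and from 497 to 1395 CPM in knockout endothelial-like cells.

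Likeness was measured over 22 columns, the 11 classes in both libraries, as Pearson's r of log2(CPM + 5) with the summed level of the members, among 10911 genes. The columns share libraries and differ in depth, so these values only describe. The gene most like the family was Nmi, an interferon-induced protein, with r = 0.91, from 10.9 to 92.5 CPM across columns. H2-T22, a class I-like molecule, had r = 0.86, and Itpkb, an inositol phosphate kinase, 0.85. The next 7 were Tmod3, Trim34a, Sri, Peak1, Uba7, Samd9l and Elf1, at 0.77 to 0.83. Isg15 ranked 523rd with r = 0.51 and Ciita 8517th with r = -0.17. Among the members themselves, the 45 pairs had r from 0.01, for Irgm2 and Gbp3, to 0.76, for Irgm1 and Gbp7.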

How the data were processed

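Single-cell suspensions came from adductor muscle digested with collagenase D, per the labels' protocols. The deposited values are unnormalized UMI counts for each gene in each barcode, with 1 library per genotype. The software was Cell Ranger, which is version 5.0.0 per the file headers but 2.1.1 per the submitters' processing notes, a conflict not settled here. Genome build: not given in the sources used here. Gene symbols were taken from the files. Coordinates come only from RefSeq GRCm38.p6.

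Filters of at least 200 genes and at most 10% mitochondrial UMIs left out 49 and 156 WT and 31 and 211 knockout barcodes, which kept 80769426 and 80151365 UMIs. A cell's score for a class was the mean over its markers of log counts per 10000, each divided by its 90th percentile in cells that have it and limited to 1. A cell joined a class at a score of at least 0.2, at least 0.1 above the next class, so cells near 2 classes stayed ungated. This scoring rule was set after the data were seen. Doublets were not otherwise removed. Scrublet, as in scanpy 1.11.5, called 12.0% of WT and 5.72% of knockout cells and was used as an alternative.

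UMIs were summed per class and library as CPM with exact Poisson intervals, ratios with exact conditional intervals and shares with Clopper-Pearson intervals, with scipy 1.17.1 and numpy 2.4.6. Cells are not replicates, so no p-value was computed. The calling script was tested on simulated data. All 10 members and any gene of 6 pathway lists could be named. The genes most like the members were the 10 of highest r among genes of at least 20 CPM in a column, leaving out clone names. Members, lists and rules were chosen with earlier results of these data known. Alternatives were the mean over cells, thinning to 1000 UMIs, a stricter gate, Scrublet, scaling to the median of all genes, no filter on cells, other limits on fold and level, and the WT mix of classes. One gene of the signalling list is not reported here.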

Additional observations from a re-analysis of the deposited data

Results flagged for a closer look

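With all UMIs, Iigp1 and Gbp7 stood on opposite sides of WT in different classes of the same libraries. Those intervals did not include 1 on either side. With 1 library per genotype these differences were not tested. The knockout over WT ratio of Iigp1 in endothelial-like cells was 2.99 times that in macrophage-like cells. Its ratio in fibroblast-like cells was 3.20 times, and in satellite cell-like cells 2.04 times, that in macrophage-like cells. The macrophage ratio of 0.787 became 0.952 (0.611 to 1.46) with cells thinned to 1000 UMIs. It was above 1 in the macrophage-like cells with a UMI of Cd163 (1.48), Gpnmb (1.15) or Ccr2 (1.16), with intervals that included 1. It was below 1 without Cd163, at 0.824 (0.678 to 1.00), without Gpnmb, at 0.682 (0.527 to 0.878), and without Ccr2, at 0.630 (0.498 to 0.793). The Cx3cr1 split gave 0.924 (0.700 to 1.22) with and 0.735 (0.571 to 0.940) without. The 12 fibroblast markers stood at 1223 CPM in WT and 402 CPM in knockout macrophage-like cells, and their part in the macrophage ratio was not tested. In muscle fibre-like cells Iigp1 had 8 UMIs in WT and 0 in knockout, and the exact interval of its ratio there reached up to 0.752. With the knockout count set to the 3 counts that a count of 0 allows, the ratio was 4.88 times that in muscle fibre-like cells in endothelial-like, 5.22 times in fibroblast-like and 3.33 times in satellite cell-like cells. Those multiples leave out the counting error of the 8 WT UMIs. In muscle fibre-like cells the 12 fibroblast markers stood at 2842 CPM in WT and 496 CPM in knockout and the 12 macrophage markers at 4031 and 2311 CPM, with 0 of 12 higher in both lists, and their part in the Iigp1 value was not tested. For Gbp7 the ratio in endothelial-like cells was 2.14 times that in macrophage-like cells. With cells thinned to 1000 UMIs, the endothelial Gbp7 ratio was 1.18 (0.809 to 1.73), an interval that includes 1. The macrophage Gbp7 ratio was then 0.599 (0.474 to 0.752).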

How the results depend on the processing

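The summed ratio stayed above 1 in all kept, endothelial-, fibroblast- and satellite cell-like cells under the alternatives tried. In satellite cell-like cells the thinned ratio was 1.19 (0.817 to 1.74), an interval that includes 1. Thinning to 1000 UMIs gave 1.18 in all kept cells and 0.889 in macrophage-like cells, and the mean over cells gave 1.21 in all kept and 1.03 in satellite cell-like cells. Scaling to the median of all genes gave 1.38 in all kept, 1.78 in endothelial-like, 1.56 in fibroblast-like and 1.08 in macrophage-like cells. The WT mix of classes, chosen after seeing the data, gave 1.24. At a limit of 2-fold, 2 members were higher in endothelial-like, 1 in fibroblast-like and 0 in macrophage-like cells. With genes of at least 20 CPM, 2 were higher in fibroblast-like and 0 in macrophage-like cells. Scaled to the median, 7 were higher in endothelial-like and 2 in macrophage-like cells. The shares of all genes under these settings are not given here, so the counts stand without a background. Of the single members' ratios, thinning moved 26 of 43 beyond their interval, and the cause was not tested. Thinned, Igtp had 4 endothelial-like WT cells with a UMI. Thinning also turned the direction of several ratios. In fibroblast-like cells they included Gbp4, from 1.17 to 0.335 (0.00756 to 2.5), and Tgtp2, from 1.03 to 0.671 (0.0136 to 6.78). Irgm2 in satellite cell-like cells went from 1.34 to 0.775 (0.144 to 4.16), and Gbp7 in muscle fibre-like cells from 1.71 to 0.309 (0.00589 to 3.85). Irgm2 and Gbp5 in endothelial-like, Irgm2 in fibroblast-like, and Gbp3 and Tgtp2 in macrophage-like cells, given above, turned too. No paired analysis was possible because each genotype has 1 library.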
